A study of Homo sapiens with 6 samples.

Results

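The urokinase plasminogen activator system was examined as 5 genes, chosen by symbol from the 58735 genes of an FPKM table: the activators PLAU and PLAT, the receptor PLAUR, and the inhibitors SERPINE2 and SERPINB2. FPKM is the number of fragments of a gene scaled by the gene's length and by the total of the library. HCT116 cells, a wild-type human colorectal carcinoma line, were compared in 2 groups of 3 RNA-seq libraries. CTR libraries came from cells given a control transfection, whose dose and sequence are not given in the sources used here. miR-8485 libraries came from cells transfected with 50 nM of a miR-8485 mimic, a synthetic RNA meant to stand in for the miRNA. Cells were collected 48 h after transfection, and the study's methods describe the replicates as biologically independent. A single cell line limits these data as a model, and the fibroblasts, leukocytes and endothelial cells that surround a tumor are absent from it. The study asked how miR-8485 alters gene expression in colon cancer cells.

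Plasminogen is an inactive precursor that circulates in blood and enters tissues. Urokinase (PLAU) and tissue plasminogen activator (PLAT) cut it into plasmin, a protease that degrades fibrin and matrix proteins and activates other proteases. Urokinase works mainly at the cell surface, bound to its receptor PLAUR, and serpins trap both activators in inactive complexes. In colorectal tumors the system is known for its part in matrix degradation and cell movement, and much of the receptor there lies on stromal and inflammatory cells.

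The 6 libraries held 17473874 to 18480047 fragments on listed genes, with overlapping ranges in the 2 groups. In every library, 100% of the values above 0 were whole multiples of the value of 1 fragment, within a tolerance of 0.05, so the fragments behind each value are known. Of 8 colon epithelial markers 7 had a mean of at least 1 FPKM and VIL1 was near 0. Their summed level was 2739 to 2971 FPKM in CTR and 1863 to 1953 in miR-8485, with the keratin genes accounting for most of it. KRT8, KRT18 and KRT19 fell, EPCAM and CDH1 did not pass the test (-0.05 each on the log2 scale), and CLDN7 rose by 0.40. CLDN4, at 92.7, 86.8 and 92.6 FPKM in CTR, was lower in every miR-8485 library than in any CTR library. None of 4 endothelial and none of 5 leukocyte markers reached 1 FPKM. Of 6 fibroblast markers only COL1A1 did, and the list summed to 4.30 to 4.53 FPKM in CTR and 6.36 to 6.53 in miR-8485, with DCN at 0 in every library. The part of these shifts in the results was not tested.

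A miRNA usually pairs through its seed, bases 2 to 8, with the 3′ UTR of a transcript. The mimic is shown because its seed defines the sites searched in the 5 genes, and capitals mark that seed. Its 17 bases are as the study's methods give them and were not compared with a reference for the mature miRNA.

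miR-8485 mimic: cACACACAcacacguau

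The matching 7-base site is TGTGTGT. PLAU was the member that held it, with 3 copies in its canonical 3′ UTR of 929 bases (GRCh38, GENCODE release 44, plus strand, chr10:73916566-73917494). Copies lay at chr10:73917080-73917086, chr10:73917082-73917088 and chr10:73917102-73917108, so the first and the second share bases. The windows around the first and the third are shown with the site in capitals.

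PLAU site at chr10:73917080-73917086: ggaaatatataTGTGTGTgtatgtttgcac
PLAU site at chr10:73917102-73917108: gtttgcacactTGTGTGTgggctgtgagtg

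The canonical 3′ UTRs of PLAUR (311 bases), PLAT (1275 bases), SERPINE2 (822 bases) and SERPINB2 (583 bases) held 0 copies. For scale, 25.6% of 19228 canonical 3′ UTRs held at least 1 copy. A match of letters is a description and does not show pairing in these cells.

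Of the 5 members, 4 were expressed at a mean of at least 1 FPKM, and all 4 were downregulated in miR-8485. PLAU and PLAUR fell the most, each to a level 2.49-fold lower than in CTR. SERPINE2 fell 1.80-fold and PLAT 1.48-fold. SERPINB2 was nearly silent and its groups overlapped. Differences were tested with limma on log2(FPKM + 0.1) in the 12349 genes that reached a mean of 1 FPKM, with Benjamini-Hochberg adjustment and a threshold of 0.05. In that test 30.5% of all genes were called down and 29.1% up, and 34.0% had all miR-8485 libraries below all CTR libraries. In bulk libraries, fewer expressing cells and less RNA per cell cannot be told apart. Each of the 4 had a mean above 1 FPKM in both groups. With 4 members tested, 4 of 4 down is a count over few genes beside a large background.

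**Figure D1:**
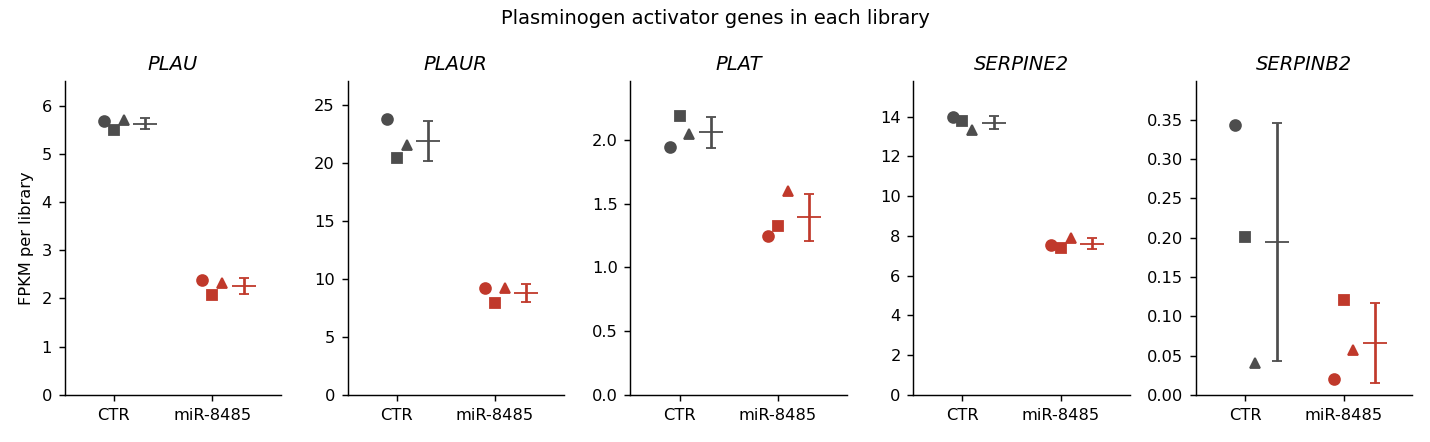
FPKM of the 5 members in each library, one panel per gene with its own axis from 0, with circles, squares and triangles for replicates 1, 2 and 3 of a group and bars for mean ± SD (n = 3). PLAU, PLAUR, PLAT and SERPINE2 show 2 separate groups of points, whereas the points of SERPINB2 overlap and lie below 0.4 FPKM.

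PLAU encodes urokinase itself and is listed as ENSG00000122861, in hg38 at chr10:73909177-73917497 on the plus strand. Its level was 5.68, 5.49 and 5.69 FPKM in CTR replicates 1 to 3 and 2.38, 2.08 and 2.31 FPKM in miR-8485 replicates 1 to 3. The lowest CTR library was above the highest miR-8485 library by more than the spread within either group. The means were 5.62 ± 0.113 and 2.26 ± 0.157 FPKM (SD, n = 3). These values rest on 293 to 304 fragments per CTR library and 111 to 130 per miR-8485 library. The log2 fold change was -1.28 (SE 0.07, limma adjusted p = 1.14e-05), and 2.57% of the tested genes had a lower one. C10orf55 lies antisense over PLAU and received 0 to 1 fragments in CTR and 1 to 12 in miR-8485. Whether the counting used strand is not given in the sources used here, so without strand the reads of the 2 genes cannot be told apart.

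PLAUR encodes the urokinase receptor, which a lipid anchor holds on the cell surface, and is listed as ENSG00000011422 at chr19:43646095-43670547 on the minus strand. It was the most abundant member, at 23.8, 20.4 and 21.6 FPKM in CTR and 9.26, 7.91 and 9.25 FPKM in miR-8485. Every miR-8485 library was far below every CTR library. The means were 21.9 ± 1.73 and 8.81 ± 0.772 FPKM (SD, n = 3), from 1647 to 1914 and 638 to 785 fragments. The log2 fold change was -1.31 (SE 0.08, limma adjusted p = 1.67e-05). A small RNA pseudogene inside PLAUR, RN7SL368P, held at most 3 fragments in any library.

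PLAT encodes tissue plasminogen activator, known mainly for dissolving fibrin clots, and is listed as ENSG00000104368 at chr8:42175233-42207724 on the minus strand. It was at 1.94, 2.19 and 2.05 FPKM in CTR and at 1.25, 1.33 and 1.60 FPKM in miR-8485. The groups did not overlap, and miR-8485 replicate 3 lay closest to CTR. The means were 2.06 ± 0.123 and 1.39 ± 0.187 FPKM (SD, n = 3), from 232 to 262 and 148 to 202 fragments. The log2 fold change was -0.54 (SE 0.13, limma adjusted p = 0.00955), the smallest among the 4 members tested, and 14.4% of tested genes had a lower one. With a pseudocount of 1 it was -0.36, since PLAT is low on this scale.

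SERPINE2 encodes protease nexin 1, a serpin that inhibits thrombin, urokinase and other serine proteases, and is listed as ENSG00000135919 at chr2:223975112-224039319 on the minus strand. Its level was 14.0, 13.8 and 13.4 FPKM in CTR and 7.54, 7.39 and 7.92 FPKM in miR-8485. Libraries within a group lay close together and the groups were well apart. The means were 13.7 ± 0.318 and 7.62 ± 0.274 FPKM (SD, n = 3), from 2149 to 2239 and 1188 to 1341 fragments, the most of any member. The log2 fold change was -0.84 (SE 0.05, limma adjusted p = 1.29e-05).

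SERPINB2 encodes plasminogen activator inhibitor 2, best known in monocytes and keratinocytes, and is listed as ENSG00000197632 at chr18:63871692-63903890 on the plus strand. It was at 0.343, 0.201 and 0.0402 FPKM in CTR and at 0.0203, 0.121 and 0.0573 FPKM in miR-8485. CTR replicate 3 was below 2 of the 3 miR-8485 libraries. These values stand for 17, 10 and 2 fragments in CTR and 1, 6 and 3 in miR-8485. SERPINB2 was below the filter on the mean, and in the fit of all 31768 genes above 0, where 11.3% of genes were called down, its log2 fold change was -0.72 (SE 0.51, limma adjusted p = 0.434). A difference was not detectable at this depth. The value ranged from -1.18 to -0.35 on the log2 scale when each library was left out.

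Per kilobase of gene, the members ranked PLAUR, SERPINE2, PLAU, PLAT and SERPINB2 in CTR. Within every one of the 3 CTR libraries, neighbours in this order were separated without overlap of their values. In miR-8485 the order was the same, and PLAUR was above SERPINE2 within each library (ratios 1.23, 1.07 and 1.17 in replicates 1 to 3). Across the miR-8485 libraries, PLAUR at 7.91 to 9.26 FPKM overlapped SERPINE2 at 7.39 to 7.92 FPKM.

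**Figure D2:**
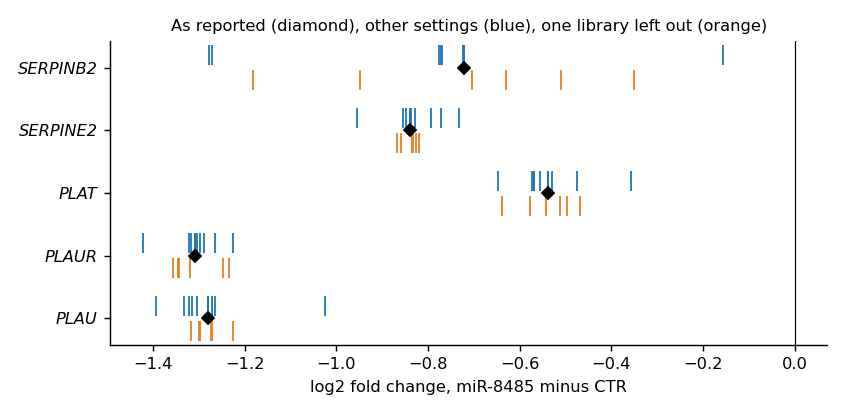
Log2 fold change of miR-8485 minus CTR for each member as reported (diamonds), under each other processing setting (blue ticks above) and with one library left out (orange ticks below). All ticks of PLAU, PLAUR, PLAT and SERPINE2 lie below 0, and those of SERPINB2 spread from -1.28 to -0.16.

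The plot of fold changes by setting shows that the calls of the 4 tested members did not rest on one library. With each library left out, PLAU ranged from -1.32 to -1.23, PLAUR from -1.36 to -1.23 and SERPINE2 from -0.87 to -0.82 on the log2 scale. PLAT ranged from -0.64 to -0.47, with adjusted p between 0.00775 and 0.0367.

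The balance between members was compared as a ratio of FPKM within each library, which cancels the scaling of the library. PLAU relative to its receptor PLAUR was 0.238, 0.269 and 0.264 in CTR and 0.257, 0.263 and 0.250 in miR-8485. The ratios overlapped and the mean log2 ratio differed by -0.0008 (exact permutation test, two-sided, p = 1.0). PLAU relative to SERPINE2 was 0.407, 0.398 and 0.426 in CTR and 0.315, 0.282 and 0.292 in miR-8485. It was lower in all 3 miR-8485 libraries, by -0.47 on the log2 scale, or by -0.25 with a pseudocount of 1. PLAU relative to PLAT was 2.92, 2.51 and 2.78 in CTR and 1.91, 1.57 and 1.44 in miR-8485, again without overlap, with a log2 difference of -0.75. PLAU relative to SERPINB2 ran from 16.5 to 142 in CTR and from 17.2 to 117 in miR-8485, which overlapped throughout (exact permutation test, p = 0.9). For the ratios to SERPINE2 and PLAT the exact p was 0.1 each, the smallest that 3 against 3 allows, and 0.2 after Benjamini-Hochberg adjustment over the 4 ratios compared. This test therefore could not pass the threshold for these ratios.

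**Figure D3:**
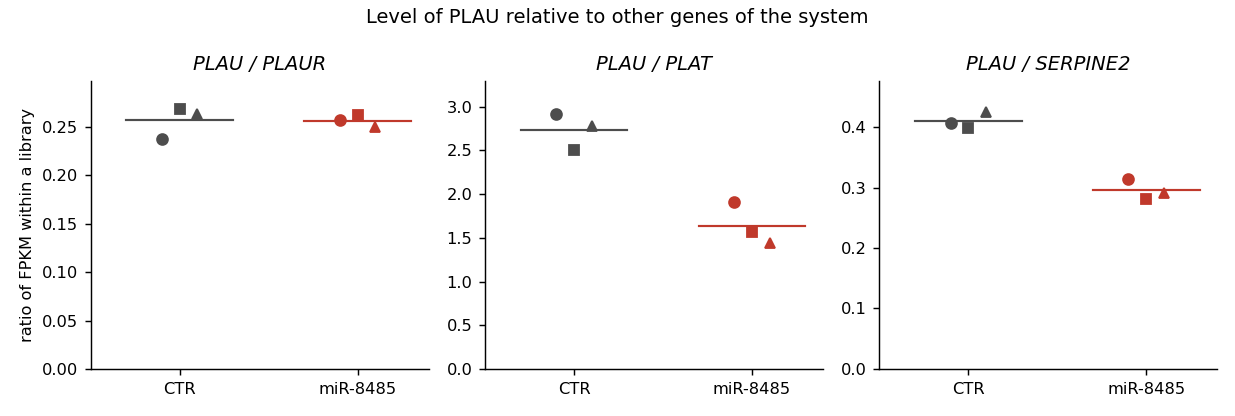
Ratio of PLAU FPKM to that of PLAUR, PLAT and SERPINE2 within each library, with circles, squares and triangles for replicates 1, 2 and 3 and a line for the group mean (n = 3), each axis starting at 0. Ratios to PLAUR overlap between groups, and ratios to PLAT and SERPINE2 are lower in all 3 miR-8485 libraries.

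A wider list held 27 other genes for activation, inhibition and clearance, of which 18 were tested, 9 were called down and 2 up, beside 30.5% down and 29.1% up over all genes tested. The median log2 fold change of the list was -0.29, beside -0.0041 over all genes tested.

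Plasminogen itself, PLG, received 0 fragments in all CTR libraries and 1 in miR-8485 replicate 1, so its transcript was not detectable at this depth in CTR, where 0 fragments allow up to 3 per library. PLG was named after its values were seen. Among proteins that hold plasminogen or tPA at the cell surface, S100A10 fell from 201 ± 11.7 to 131 ± 6.07 FPKM (SD, n = 3), at -0.62 on the log2 scale. Its partner ANXA2 fell less, from 264 ± 14.4 to 210 ± 2.97 FPKM, and ENO1, a glycolytic enzyme also found at the surface, from 713 ± 33.4 to 596 ± 9.29 FPKM (-0.26, with -0.42 to -0.22 over the alternatives). The plasminogen receptor PLGRKT, at 8.51 and 8.01 FPKM, did not pass the test.

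Clearance of urokinase complexes runs through endocytic receptors. MRC2, a collagen receptor that associates with PLAUR, fell from 2.95 ± 0.287 to 0.756 ± 0.161 FPKM, the greatest fall of the tested list at -1.85 (SE 0.17). SORL1 fell from 1.86 ± 0.120 to 0.985 ± 0.0569 FPKM, and the receptor chaperone LRPAP1 from 10.2 ± 0.239 to 7.40 ± 0.283 FPKM. LRP1, the receptor that takes up inhibited urokinase, was at 1.30 ± 0.132 and 1.28 ± 0.103 FPKM, a log2 difference of -0.01 (SE 0.15). MRC2 and SORL1 passed the filter through their CTR levels, so a call down was more likely for them. Over the alternatives their log2 fold changes ran from -1.99 to -1.17 and from -0.96 to -0.53. SERPINB8, a serpin below the filter and named after its values were seen, was called down in the fit of all genes above 0 (-0.92, adjusted p = 0.0234), a call lost with any one library left out (adjusted p from 0.0532 to 0.0813).

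Surface proteases and their inhibitors were mixed. ST14, matriptase, which can activate urokinase, fell from 86.1 ± 1.73 to 53.3 ± 1.93 FPKM, at -0.69 on the log2 scale (SE 0.04, limma adjusted p = 1.59e-05). Its inhibitor SPINT1 was called down at 56.1 and 49.7 FPKM with overlapping libraries (adjusted p = 0.0455), and the protease PRSS8 was called up at 24.2 and 27.0 FPKM (adjusted p = 0.0488). Both calls were lost when CTR replicate 2, CTR replicate 3 or any one of the miR-8485 replicates was left out, and PRSS8 was at 0.04 on the log2 scale (adjusted p = 0.637) after rescaling to TPM. The other gene called up was SERPINB6, an intracellular serpin, which rose from 5.43 ± 0.435 to 7.67 ± 0.375 FPKM (0.49, SE 0.07, adjusted p = 0.000929). SERPINA5, SERPINI1, SERPINF2, SPINT2 and F12 did not pass the test, with log2 fold changes from -0.43 to 0.18.

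**Figure D4:**
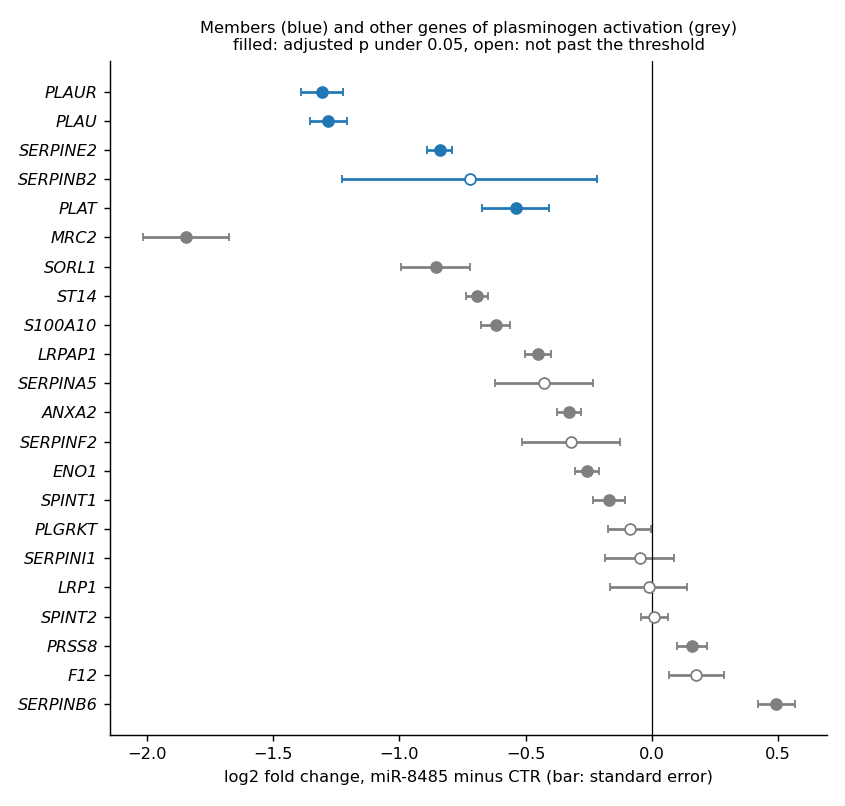
Log2 fold change of miR-8485 minus CTR with its standard error for the 5 members (blue) and for other tested genes of activation, inhibition and clearance (grey), filled where the adjusted p was under 0.05. The filled points of PLAU and PLAUR lie near -1.3, MRC2 is lowest at -1.85, and SERPINB6 is highest at 0.49.

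Of the 18 tested genes of that list, 4 held the seed site in the canonical 3′ UTR, and all 4 were called down, among them ST14 with 1 copy, SORL1 with 2 and LRPAP1 with 8. Of the 14 without it, 5 were called down and 2 up. The other lists, described below, differed in this split. Among matrix genes 2 of 4 with the site and 6 of 12 without it were called down. Among the listed factors it was 4 of 6 and 7 of 12. In each of these 2 lists 1 gene with the site was called up. Among PLAUR partners it was 4 of 4 and 5 of 8, and among SERPIN genes 1 of 1 and 4 of 10. Over all tested genes with a canonical 3′ UTR, 44.5% of 3085 with the site and 29.3% of 7586 without it were called down. Among the tested members PLAU held the site, while PLAUR, PLAT and SERPINE2 were also down without it.

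PLAUR has no cytoplasmic part and signals through partners in the membrane. Of 15 listed partners and relatives, 12 were tested, 9 were called down and 1 up, beside 30.5% down and 29.1% up over all genes tested. The median log2 fold change was -0.61. The laminin receptor chain ITGA6 fell from 22.7 ± 0.864 to 6.96 ± 1.08 FPKM (-1.70, SE 0.10). ITGA3, an integrin chain reported to associate with PLAUR, fell from 53.7 ± 0.609 to 17.7 ± 0.581 FPKM (-1.59, SE 0.04). The shared chain ITGB1 fell from 67.5 ± 3.11 to 35.7 ± 2.62 FPKM and the growth factor receptor EGFR from 8.99 ± 0.482 to 4.78 ± 0.0934 FPKM. IGF2R, which can bind both PLAUR and plasminogen, fell from 3.27 ± 0.174 to 1.25 ± 0.0759 FPKM (-1.32, SE 0.10). The gene called up was CAV1, a caveola protein, at 88.9 ± 1.5 and 102 ± 2.63 FPKM (0.19, adjusted p = 0.00431), a call lost after rescaling to TPM (0.08, adjusted p = 0.216). CAV1 fell outside the rule for named genes and was named after its values were seen.

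Among 24 matrix proteases and inhibitors, 16 were tested, 8 were called down and 2 up, beside 30.5% down and 29.1% up over all genes tested. The median was -0.22. The lysosomal protease CTSD fell from 36.8 ± 0.690 to 3.94 ± 0.567 FPKM, at -3.20 on the log2 scale (SE 0.09). The metalloprotease inhibitors TIMP2 (51.0 ± 2.25 to 17.2 ± 1.47 FPKM) and TIMP3 (2.25 ± 0.504 to 0.542 ± 0.103 FPKM) also fell, as did the membrane protease ADAM9 (23.6 ± 0.665 to 15.0 ± 1.12 FPKM). MMP11, a metalloprotease, rose from 2.14 ± 0.148 to 5.39 ± 0.334 FPKM (1.30, SE 0.08). Its canonical 3′ UTR held 1 copy of the seed site. The other gene called up was the cathepsin inhibitor CST3, at 45.9 ± 3.07 and 54.9 ± 0.776 FPKM (0.26), a call lost after rescaling to TPM (0.14, adjusted p = 0.109) and named after its values were seen. TIMP3, like ETS1 in the next list, passed the filter through CTR alone, and ran from -2.04 to -1.07 over the alternatives.

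Transcription of PLAU and PLAUR is driven in part by AP-1 and ETS factors. Of 19 listed factors, 18 were tested, 11 were called down and 3 up, beside 30.5% down and 29.1% up over all genes tested. The median was -0.39. ETS1 fell from 2.16 ± 0.285 to 0.722 ± 0.0635 FPKM (-1.46, SE 0.16), and its canonical 3′ UTR held 24 copies of the seed site. Over the alternatives its log2 fold change ran from -1.58 to -0.87. Of the 6 tested factors with the site, ETS1 among them, 4 were called down and 1 up, which was JUND with 5 copies. The AP-1 subunits FOS (3.34 ± 0.0962 to 1.49 ± 0.0624 FPKM), FOSL1 (51.5 ± 1.58 to 28.9 ± 0.655 FPKM) and FOSL2 (19.0 ± 1.12 to 10.4 ± 0.400 FPKM) fell as well. KLF4 fell from 19.6 ± 0.373 to 9.79 ± 0.867 FPKM. The 3 called up, named after their values were seen, were the AP-1 subunits JUN (8.20 ± 0.603 to 13.6 ± 1.16 FPKM) and JUND (91.2 ± 6.96 to 113 ± 4.53 FPKM) and the Wnt factor TCF7L2 (17.2 ± 0.536 to 19.7 ± 1.06 FPKM). JUND ran from 0.16 to 0.37 on the log2 scale over the alternatives. The call of TCF7L2 was lost after rescaling to TPM (adjusted p = 0.342) and without miR-8485 replicate 2 (adjusted p = 0.0668). FOSB, an AP-1 subunit below the filter, was at 0.492 ± 0.111 and 1.18 ± 0.159 FPKM and was called up in the fit of all genes above 0 (1.12, adjusted p = 0.0131). This call was lost without CTR replicate 3, miR-8485 replicate 1 or miR-8485 replicate 3 (adjusted p from 0.0529 to 0.0613). The canonical 3′ UTR of FOSB held 3 copies of the seed site.

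Promoters of PLAU and PLAUR are shown because the factors above bind AP-1 and ETS motifs. Each runs from 250 bases before to 50 after a start site in RefSeq (GRCh38.p14), which listed promoters for 4 of the 5 members, with PLAT named only. Motifs were searched on both strands as TGANTCA (AP-1, in 7.71% of 35116 promoters of this length), CGGAAG (ETS, in 19.5%) and AGGAAG (ETS, in 33.6%). Capitals mark the matches.

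PLAU promoter, chr10:73910882-73911181, plus strand: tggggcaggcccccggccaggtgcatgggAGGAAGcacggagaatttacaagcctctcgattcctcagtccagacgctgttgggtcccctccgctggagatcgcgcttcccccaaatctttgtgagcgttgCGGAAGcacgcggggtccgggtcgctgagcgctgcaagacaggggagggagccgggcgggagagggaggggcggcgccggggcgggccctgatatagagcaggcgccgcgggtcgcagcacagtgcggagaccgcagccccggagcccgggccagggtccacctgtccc
PLAUR promoter, chr19:43670120-43670419, minus strand: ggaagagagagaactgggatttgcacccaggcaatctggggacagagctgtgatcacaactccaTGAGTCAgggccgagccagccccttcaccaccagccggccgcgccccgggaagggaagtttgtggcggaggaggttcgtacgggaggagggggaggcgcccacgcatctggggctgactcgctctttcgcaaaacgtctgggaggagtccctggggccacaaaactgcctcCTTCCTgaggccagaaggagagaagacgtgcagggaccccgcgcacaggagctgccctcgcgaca

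The PLAU window held AGGAAG at -221 and CGGAAG at -119 from the start site. The PLAUR window held TGAGTCA at -186 and AGGAAG on the opposite strand, read here as CTTCCT, at -15. Motif matches were also found in SERPINB2 (TGAATCA at -102 and CTTCCT at -119) and in one of 2 SERPINE2 windows (CTTCCG at -71). The second PLAU window, chr10:73910360-73910659, and the second SERPINE2 window, chr2:224038591-224038890, held none of these letters. No binding was measured, and motifs this short occur in many promoters.

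Genes with the most similar profile over the 6 libraries were found by Euclidean distance between log2(FPKM + 0.1) values centered on the CTR mean, among protein-coding genes tested. PLAU was closest to CPOX (distance 0.115), HSDL1 (0.123) and U2AF2 (0.126). PLAU in turn was the nearest of 10720 genes to PLAUR (0.150), followed by CDKN2D (0.152) and CA2 (0.180). PLAT was closest to HASPIN (0.0744), MTFR2 (0.123) and PLS1 (0.142). SERPINE2 was closest to PPP1CC (0.0492), CORO1C (0.0778) and KIF23 (0.0862). A small distance here means a similar fold change and similar spread, whatever the level, and the 6 libraries are too few to separate such genes.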

How the data were processed

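RNA-seq libraries were prepared by the authors with a VAHTS kit and sequenced on a NovaSeq instrument. Reads were trimmed with fastp, mapped to hg38 with HISAT2 version 2.0.5 and assigned to genes with featureCounts version 1.5.0-p3, as the labels and methods state. The authors deposited FPKM values, and the annotation release and the strand setting are not given in the sources used here. Columns were matched to samples by name, and 0 columns had no sample. Fold changes on the log2(FPKM + 0.1) scale understate the change of low genes, and FPKM does not show a change in total RNA per cell.

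The members, gene lists and tests were chosen with earlier results of these data known. In R 4.3.3, limma 3.58.1 with a variance trend was fitted, two-sided, to all genes whose mean reached 1 FPKM, and genes below that were read from the fit of all genes above 0. Genes were called at an adjusted p under 0.05. All 5 members were named, as was any gene of the activation list with a mean of at least 1 FPKM. In the other lists, up to 5 called genes without overlap and with the greatest absolute change were named. Alternatives were other pseudocounts (1 and 0.01), filters, scalings, a length correction, a replicate block, voom on recovered fragments and each library left out. On simulated libraries, the limma fit recovered 89 of 97 genes changed by 1 and 49 of 99 changed by 0.5 on the log2 scale, with 13 false calls among 12431 genes tested. The simulation changed 200 genes at a fixed spread (dispersion 0.005), whereas 3769 genes were called down in the data. Its counts therefore do not give the performance on these data. Exact permutation tests, tables and plots used scipy 1.17.1, pandas 2.3.3, numpy 2.4.6 and matplotlib 3.10.9 in Python 3.11.15. Other experiments of the study were not analysed here, and 1 gene that the list counts include is not reported here by itself.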

Additional observations from a re-analysis of the deposited data

How the results depend on the processing

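PLAU, PLAUR, PLAT and SERPINE2 kept their direction and their call under every alternative in which they were tested, and SERPINB2 was called in none. A filter at a mean of 5 FPKM left 2 members down, since PLAU and PLAT lie below it. In the activation list, genes called up numbered 1 with no filter, after rescaling to TPM, with the length trend removed, with no variance trend and with voom on genes with at least 10 fragments. After rescaling to TPM, which shifted the all-gene median on the log2 scale from -0.0041 to -0.12 and gave 2614 up and 4723 down, 0 PLAUR partners and 1 matrix gene were called up, and the filter at 5 FPKM also left 1 matrix gene up. With no filter or voom on genes with at least 10 fragments, 2 SERPIN genes were called up. The miR-8485 minus CTR difference in the log2 ratio of PLAU to PLAUR was 0.20 with a pseudocount of 1 and 0.0021 with 0.01. For the ratio of PLAU to SERPINB2 this difference was -0.87 and -0.043. With a pseudocount of 1 the exact permutation p was 0.1 for both, the smallest possible. These ratios differ from those given above only in the pseudocount. Adding 1 changes PLAU (5.62 FPKM in CTR, 2.26 in miR-8485) by a larger share than PLAUR (21.9 and 8.81 FPKM). It is also above every value of SERPINB2, which reached at most 0.343 FPKM. These p-values are therefore not read as a change in balance.

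Over the fits that omitted 1 library, the members down stayed at 4 and those up at 0, and the activation list gave 1 to 2 up. The miR-8485 minus CTR difference in the log2 ratio of PLAU to PLAUR ranged from -0.0543 to 0.0323. For the ratio of PLAU to SERPINB2 it ranged from -0.60 to 1.03. The difference for PLAUR was 0.0323, 0.0197 and 0.0175 without CTR replicate 2, CTR replicate 3 and miR-8485 replicate 3. The difference for SERPINB2 was -0.52, -0.16 and -0.60 without CTR replicate 1, CTR replicate 2 and miR-8485 replicate 1. Deviations from the group means correlated between same-numbered libraries at 0.067, 0.033 and -0.064, so the numbers were not taken to pair them. CTR replicate 2 and CTR replicate 3 each correlated best with another number. A fit with the replicate block called 3634 genes up and 3754 down, against 3593 and 3769 without it, and gave PLAU -1.28 (adjusted p = 0.000134), PLAUR -1.31, PLAT -0.54 (adjusted p = 0.0183), SERPINE2 -0.84 and SERPINB2 -0.72. SPINT1 lost its call under the block (adjusted p = 0.0689). Depth limits SERPINB2, with 1 to 17 fragments per library.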

Other observations

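Beyond the inhibitors of plasminogen activation, 34 SERPIN genes were listed, of which 23 had a mean below 1 FPKM, 5 of the 11 tested were called down and 1 up, beside 30.5% down and 29.1% up over all genes tested. The median log2 fold change was -0.32. SERPINB9, an inhibitor of granzyme B, fell from 15.2 ± 1.37 to 7.08 ± 0.859 FPKM (SD, n = 3), at -1.09 on the log2 scale (SE 0.10, limma adjusted p = 9.52e-05). SERPINA1, alpha-1 antitrypsin, fell from 2.0 ± 0.371 to 0.960 ± 0.216 FPKM (-0.99, SE 0.21, limma adjusted p = 0.00454). It passed the filter through its CTR level, which favours a call down, and ran from -1.15 to -0.61 over the alternatives. SERPINB5, maspin, fell from 26.7 ± 0.318 to 21.4 ± 0.964 FPKM (-0.31, SE 0.05). SERPINB1, an inhibitor of neutrophil proteases, was at 40.2 ± 1.93 and 37.2 ± 1.38 FPKM, and SERPINH1, a collagen chaperone, at 19.8 ± 0.689 and 20.1 ± 0.592 FPKM, and neither passed the test.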
